A study of Mus musculus with 2 samples.

Results

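The 42 genes described here are markers of cell proliferation, read in single-cell RNA-Seq of mouse lung and chosen by gene symbol from the 32285 genes of the deposited matrices. They comprise 15 genes of S phase, 24 genes of G2 and mitosis, and 3 others, Stmn1, Tubb5 and Hmgb2, that are abundant in dividing cells and also made outside of division. A cell was called cycling if the UMIs of Mki67, Top2a, Cdk1, Ccnb1 and Birc5 summed to at least 3 (a UMI is a molecular tag that counts 1 captured RNA molecule once). Each member had at least 16 UMIs in one library and at least 61 in the other, so all 42 were detected in both.

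One library came from control Cebpa fl/fl mice and the other from Cebpa deltaSftpc mice, which carry the same floxed Cebpa alleles together with Sftpc-CreERT2. The Sftpc promoter restricts the tamoxifen-dependent Cre to alveolar type 2 (AT2) cells, so the other lung cells of these mice keep Cebpa unless they descend from AT2 cells. Mice aged 3 months at the start received 5 daily tamoxifen injections of 75 mg/kg, with a further weekly round for late analyses, and the lungs were taken 26 weeks after the first. The study's methods count 3 mice per genotype, pooled with no mark of the mouse on a cell, so each genotype was 1 sample and no difference between genotypes has a replicate check.

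Every interval below is an exact 95% interval for counting error only, and no p-value was computed. Intervals of CPM and of ratios of CPM count each UMI as separate. They are too narrow where the UMIs of a gene sit together in few cells. The Cebpa fl/fl library held 11487 cells and 68802017 UMIs, and the Cebpa deltaSftpc library held 13238 cells and 64452208 UMIs, with medians of 4835 and 2607 UMIs per cell. The libraries shared 45 barcode sequences, none of them in a cycling cell. In AT2 cells Cebpa stood at 159 CPM (UMIs of a gene per 1000000 UMIs of the cells summed; 150 to 168) in Cebpa fl/fl and 131 CPM (112 to 153) in Cebpa deltaSftpc, so its RNA was not lost from the cells gated as AT2. The labels mention a FACS sorting method, and the methods give a sort that leaves out doublets by scatter and removes CD45 cells but describe these libraries as suspensions of whole lungs. Whether the sort was applied to them is not stated, and both hold immune cells, so a share of cells below describes the library and not the organ.

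A cell that divides first copies its DNA in S phase and then separates the copies in mitosis. S phase draws on the MCM helicase that opens the double helix, the clamp Pcna that holds polymerases on the DNA, and enzymes that make nucleotides. Entry into mitosis is driven by Cdk1 with its A and B cyclins, and is followed by chromosome condensation, spindle building and the destruction of cyclins by the anaphase-promoting complex. Most cells of the adult lung are quiescent, and in such cells the DREAM complex holds both sets of genes down. In cells that enter the cycle, E2F factors switch on the S genes, and the MuvB core with B-MYB and FOXM1 later switches on the mitotic genes.

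Promoter sequences are shown for the 5 genes of the cycling rule and for 2 MCM genes, because such promoters hold the elements through which the sets are known to be controlled. Each is the 150 bases before the RefSeq start, 5′ to 3′ in the direction of the gene. Capitals mark the letters CCAAT (the NF-Y box), the CHR element of mitotic genes (written TTTGAA or in its variant TTTAAA) and E2F sites (written TTCCCGC or, in the variants that were searched with it, TTCGCGC besides TTGCCGC besides TTGGCGC), on either strand.
Mki67, GRCm38 chr7:135716380-135716529, - strand: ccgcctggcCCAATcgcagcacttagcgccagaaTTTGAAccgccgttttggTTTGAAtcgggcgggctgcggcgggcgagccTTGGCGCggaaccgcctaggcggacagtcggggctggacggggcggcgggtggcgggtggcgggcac
Top2a, GRCm38 chr11:99024190-99024339, - strand: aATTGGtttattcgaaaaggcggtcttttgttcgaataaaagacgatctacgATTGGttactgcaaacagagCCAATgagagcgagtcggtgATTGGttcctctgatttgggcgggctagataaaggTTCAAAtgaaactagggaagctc
Cdk1, GRCm38 chr10:69352913-69353062, - strand: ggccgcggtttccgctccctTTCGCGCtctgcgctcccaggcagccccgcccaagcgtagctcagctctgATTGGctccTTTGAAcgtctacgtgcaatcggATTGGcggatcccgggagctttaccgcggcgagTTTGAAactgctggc
Ccnb1, GRCm38 chr13:100786487-100786636, - strand: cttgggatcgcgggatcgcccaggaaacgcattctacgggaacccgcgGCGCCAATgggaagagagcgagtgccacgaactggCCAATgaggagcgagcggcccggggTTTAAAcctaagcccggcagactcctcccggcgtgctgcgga
Birc5, GRCm38 chr11:117849087-117849236, + strand: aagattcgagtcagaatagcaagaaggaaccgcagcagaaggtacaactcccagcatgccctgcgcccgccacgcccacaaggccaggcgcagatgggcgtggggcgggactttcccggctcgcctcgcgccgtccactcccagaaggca
Mcm5, GRCm38 chr8:75109359-75109508, + strand: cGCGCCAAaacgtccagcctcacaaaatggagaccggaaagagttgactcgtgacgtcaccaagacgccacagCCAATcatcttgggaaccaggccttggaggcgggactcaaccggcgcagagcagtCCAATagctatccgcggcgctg
Mcm6, GRCm38 chr1:128359706-128359855, - strand: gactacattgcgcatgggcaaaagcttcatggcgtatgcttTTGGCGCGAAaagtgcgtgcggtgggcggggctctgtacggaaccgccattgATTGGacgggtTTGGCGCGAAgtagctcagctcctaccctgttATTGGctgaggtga
In Ccnb1 an E2F match and a CCAAT box overlap, and in Mcm6 E2F matches on the 2 strands overlap. In Birc5 none of these letters lay in the stretch shown. The same stretch of Mcm3, a further MCM gene that is not printed, held 3 CCAAT boxes and no CHR or E2F match.

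Over windows of 300 bases, from 250 before to 50 after the start, 34 of the 42 members had a RefSeq promoter. CCAAT was found in 18 of 20 G2/M members (90%) and 9 of 12 S members (75%), against 41.1% of 27025 genes. A CHR element was found in 18 of the G2/M members (90%) and 6 of the S members (50%), against 30.6% of all genes. The E2F letters showed the opposite order, in 7 S members (58.3%) and 4 G2/M members (20%), against 10.9% of all genes. These are matches of letters, not measured binding.

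Cycling cells were rare in both libraries and made up a larger share of the Cebpa deltaSftpc library. There were 12 among 11487 Cebpa fl/fl cells (0.104%, 0.054% to 0.182%) and 104 among 13238 Cebpa deltaSftpc cells (0.786%, 0.642% to 0.951%), a log2 ratio of 2.91 (2.05 to 3.91). The Cebpa deltaSftpc library was the shallower one. Among cells with at least 3000 UMIs the counts were 11 of 8209 and 74 of 6212 (log2 ratio 3.15), and with every cell thinned to 2000 UMIs they were 7 of 9327 and 39 of 7628 (log2 ratio 2.77).

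The cycling cells differed in how strongly they carried the rule genes. In Cebpa fl/fl, 6 of the 12 had at least 20 UMIs of the 5 genes, and 6 lay between 3 and 19. In Cebpa deltaSftpc, 29 of the 104 had at least 20 and 75 lay between 3 and 19. Just inside the threshold, 4 Cebpa fl/fl and 40 Cebpa deltaSftpc cells had 3 or 4 UMIs, and just outside it 11 and 87 cells had 2. All 5 genes were found together in 4 of the 12 and 19 of the 104 cells, and a single gene gave the call in 2 and 15 cells. Every cycling cell carried a UMI of at least 1 further member, which the rule had not used. Many other cells do so too, since Tubb5 alone had a UMI in 61.4% of all Cebpa fl/fl and 57.8% of all Cebpa deltaSftpc cells. No UMI of an S member was found in 1 of the 12 and 20 of the 104 cycling cells.

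**Figure D1:**
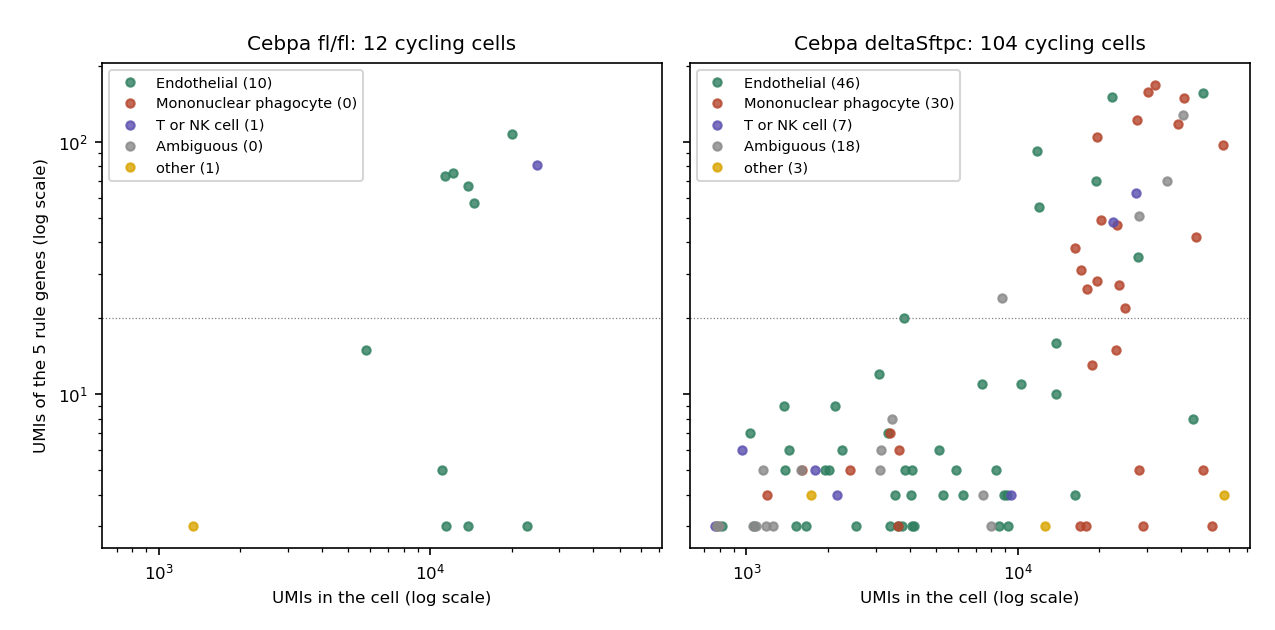
UMIs of the 5 rule genes against all UMIs of a cell, both on log axes, for the cycling cells of each library, coloured by lineage. The dotted line marks 20 UMIs; 6 of 12 Cebpa fl/fl and 29 of 104 Cebpa deltaSftpc cells lie on or above it, and the 30 phagocytes lie in the Cebpa deltaSftpc library.

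The 5 rule genes showed the same order between the libraries, summed over all cells. Their UMIs define a cycling cell, so this order is no separate check of the share. Mki67, a protein that coats mitotic chromosomes, had 197 UMIs (2.86 CPM) in Cebpa fl/fl and 1333 UMIs (20.7 CPM) in Cebpa deltaSftpc, a log2 ratio of 2.85 (2.64 to 3.08). Of these UMIs 163 and 1078 lay in 10 and 85 cycling cells, a clustering that the interval leaves out. Top2a, the topoisomerase that untangles the copied DNA, had 278 UMIs (4.04 CPM) and 1054 UMIs (16.4 CPM), a log2 ratio of 2.02 (1.82 to 2.21). Cdk1, the mitotic kinase, had 0.785 and 4.16 CPM, and its partner cyclin Ccnb1 had 0.334 and 2.30 CPM. Birc5, the survivin subunit of the chromosomal passenger complex, had 62 UMIs (0.901 CPM) and 448 UMIs (6.95 CPM), a log2 ratio of 2.95 (2.56 to 3.35). All 5 lay higher in Cebpa deltaSftpc, with an interval of the log2 ratio above 0, as had 31.6% of the genes tested in the same way.

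Cells were assigned to lineages by raw counts of marker genes, which had to be at least 2 times those of the next lineage. The markers of a lineage therefore lead by construction and give no separate check of its name. The erythroid cells of Cebpa deltaSftpc, gated by hemoglobin, held more endothelial than other erythroid marker RNA. Endothelial cells made up 70.7% of all cells in Cebpa fl/fl and 63.0% in Cebpa deltaSftpc, and mononuclear phagocytes made up 0.427% and 5.37%. Of the cycling cells, 10 of 12 in Cebpa fl/fl were endothelial. In Cebpa deltaSftpc 46 of 104 were endothelial, 30 were phagocytes, 7 were T or NK cells and 18 carried markers of more than 1 lineage and stayed ambiguous.

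**Figure D2:**
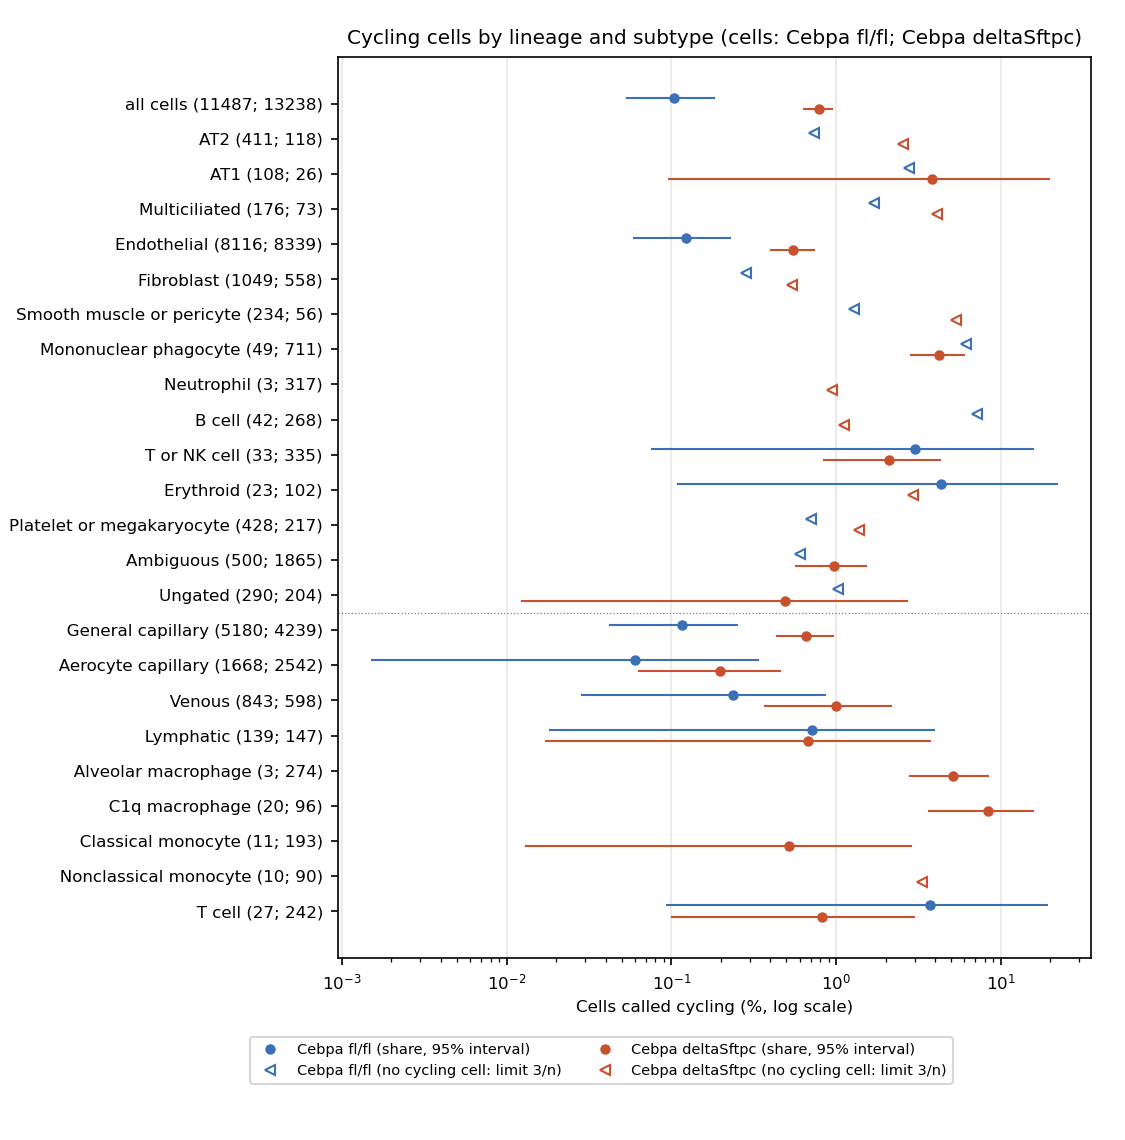
Share of cycling cells (log axis, percent) by lineage above the dotted line and by subtype below it, with exact 95% intervals; the numbers of cells of each library stand in parentheses. Open triangles mark the limit of 3 cells for groups with no cycling cell (groups under 25 cells are left out), and the highest shares are the C1q macrophages (8.33%) and alveolar macrophages (5.11%) of Cebpa deltaSftpc. Groups under 100 cells over both libraries, such as dendritic cells, are not drawn.

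Endothelial cells line the vessels of the lung and were the only lineage with at least 10 cycling cells in each library. Of 8116 Cebpa fl/fl endothelial cells 10 were cycling (0.123%, 0.0591% to 0.226%), and of 8339 Cebpa deltaSftpc endothelial cells 46 were (0.552%, 0.404% to 0.735%), a log2 ratio of 2.16 (1.16 to 3.31). General capillary cells, the progenitor-like cells of the alveolar capillary bed, gave 6 of 5180 and 28 of 4239. Aerocytes, the capillary cells of gas exchange, gave 1 of 1668 and 5 of 2542. Venous cells gave 2 of 843 and 6 of 598, and lymphatic cells 1 of 139 and 1 of 147. The log2 ratio was 2.51 (1.21 to 4.07) for general capillary cells, 1.71 (-1.45 to 7.28) for aerocytes and 2.08 (-0.40 to 5.42) for venous cells. The intervals overlapped, and a difference between the subtypes was not tested. Thinned to 2000 UMIs, general capillary cells gave 3 of 4529 and 12 of 2988 (2.60), aerocytes none of 1452 and 1310, and venous cells 2 of 729 and 1 of 398 (-0.13, -6.01 to 4.14).

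At least 20 UMIs of the rule genes were found in 5 Cebpa fl/fl and 7 Cebpa deltaSftpc endothelial cells, a log2 ratio of 0.45 with an interval (-1.43 to 2.44) that held both 0 and the ratio of 2.16 over all cycling endothelial cells. These cells are too few to tell whether the difference extends to them. The remaining 39 of the 46 had between 3 and 19 UMIs, against 5 of the 10 in Cebpa fl/fl.

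Immune RNA moved with these counts. A UMI of Ptprc, the pan-leukocyte antigen CD45, was carried by 0.628% of endothelial cells in Cebpa fl/fl and by 19.5% in Cebpa deltaSftpc (1.40 and 74.4 CPM). Of the cycling ones, 1 of 10 and 18 of 46 carried it. Among those with at least 20 UMIs of the rule genes it was in 0 of 5 and 5 of 7. The summed phagocyte markers stood at 14.3 and 188 CPM in endothelial cells of the 2 libraries, against 16545 and 14808 CPM of endothelial markers. Among endothelial cells with no Ptprc UMI, 9 of 8065 and 28 of 6711 were cycling, a log2 ratio of 1.90 (0.78 to 3.17). Among those with a Ptprc UMI, 1 of 51 and 18 of 1628 were, a log2 ratio of -0.83 (-3.49 to 4.55). The part of immune RNA and of doublets was not tested.

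One Cebpa deltaSftpc cell in this group was unlike the others. It had 48345 UMIs, of which 156 were of the rule genes, 22 of endothelial markers and none of Ptprc, and it held all 1213 UMIs of the basal and squamous epithelial genes Krt5, Krt13, Krt14, Krt15 and Lgals7 found in cycling endothelial cells. Without it the summed G2/M members of Cebpa deltaSftpc endothelial cells went from 103 to 90.8 CPM, against 55.6 CPM in Cebpa fl/fl (log2 ratio 0.90 with it and 0.71 without).

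Mononuclear phagocytes are the macrophages, monocytes and dendritic cells. None of 49 was cycling in Cebpa fl/fl, which allows a share of up to 6.12%, so a difference in share was not detectable at this depth. A sort that removes CD45 cells, if it was used, can set how many phagocytes and lymphocytes a library holds. In Cebpa deltaSftpc 30 of 711 were cycling (4.22%, 2.86% to 5.97%), and they held 50.7% of the rule UMIs of all cycling cells in that library. By subtype these were 14 of 274 alveolar macrophages (5.11%, 2.82% to 8.42%), which renew in the lung by division, and 8 of 96 C1q macrophages (8.33%, 3.67% to 15.8%). Dendritic cells gave 6 of 41 (14.6%). Monocytes, which arrive from the blood as non-dividing cells, gave 1 of 193 classical and 0 of 90 nonclassical cells, the latter allowing a share of up to 3.33%.

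Phagocytes were deeper than most cells, with a median of 10373 UMIs in Cebpa deltaSftpc. The C1q macrophages were shallower, with a median of 2445.5 UMIs. Ptprc was carried by 3 of their 8 cycling cells and by all 14 cycling alveolar macrophages. Thinned to 2000 UMIs, 15 of 580 stayed cycling (2.59%), comprising 5 of 211 alveolar macrophages (2.37%), 5 of 58 C1q macrophages (8.62%), 4 of 41 dendritic cells (9.76%) and 1 monocyte. At least 20 UMIs of the rule genes were found in 16 of the 30 cells.

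The summed levels of the members in phagocytes rest on few Cebpa fl/fl UMIs. The 24 G2/M members summed to 30 UMIs (93.3 CPM, 62.9 to 133) in Cebpa fl/fl, with 15 genes at 0, and to 3990 UMIs (498 CPM, 482 to 513) in Cebpa deltaSftpc, a log2 ratio of 2.42 (1.90 to 2.99). The 15 S members summed to 46 UMIs (143 CPM) and 2663 UMIs (332 CPM), a log2 ratio of 1.22 (0.80 to 1.67). Mki67 stood at 15.5 CPM (5 UMIs) and 80.3 CPM (644 UMIs), and Top2a had no UMI in Cebpa fl/fl and 386 (48.1 CPM) in Cebpa deltaSftpc. Both intervals lay above 0, but they count each UMI as separate. Of the 1389 UMIs of the rule genes in Cebpa deltaSftpc phagocytes, 1306 lay in the 30 cycling cells. The intervals thus leave out the error of drawing only 49 Cebpa fl/fl cells. The subtype makeup of the 49 cells also differed from that of the 711, with 3 and 274 alveolar macrophages.

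T and NK cells gave 1 cycling cell of 33 in Cebpa fl/fl and 7 of 335 (2.09%, 0.844% to 4.26%) in Cebpa deltaSftpc. The latter were 5 of 93 NK cells and 2 of 242 T cells. The single Cebpa fl/fl cell was a T cell with 24705 UMIs, 81 of them of the rule genes, 111 of S members and 198 of G2/M members. With it the G2/M members summed to 846 CPM in the T and NK cells of Cebpa fl/fl, and without it to 85.8 CPM. In Cebpa deltaSftpc, with its 7 cycling cells kept, they summed to 268 CPM. The single Cebpa fl/fl cell thus set the direction of the comparison over all T and NK cells. With cycling cells left out of both libraries the sums were 85.8 and 105 CPM, from 20 and 255 UMIs.

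The cells gated as epithelial, which include the targeted AT2 cells, held 1 cycling cell. The gate used no markers of basal cells. The Cebpa deltaSftpc cell with 1213 keratin and Lgals7 UMIs described above was counted as endothelial and is not among them. None of 411 Cebpa fl/fl and 118 Cebpa deltaSftpc AT2 cells was cycling, which allows shares of up to 0.730% and 2.54%. Multiciliated cells gave none of 176 and 73. Of the AT1 cells, the flat cells of gas exchange, 0 of 108 and 1 of 26 were cycling, the latter with 3 UMIs of the rule genes. The AT2 cells of Cebpa deltaSftpc were fewer and shallower (median 3687 UMIs, against 21100), and a cycling share below the limit could have been missed.

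Other lineages without cycling cells were fibroblasts (0 of 1049 and 0 of 558, limits 0.286% and 0.538%), smooth muscle cells and pericytes (0 of 234 and 0 of 56), B cells (0 of 42 and 0 of 268), and platelets and megakaryocytes (0 of 428 and 0 of 217). Neutrophils, which leave the marrow after their last division, gave 0 of 317 in Cebpa deltaSftpc (limit 0.946%), with 3 cells in Cebpa fl/fl. Erythroid cells gave 1 of 23 and 0 of 102, the cell having 3 UMIs. A single plasma cell of Cebpa deltaSftpc was cycling with 4 UMIs.

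Free RNA in droplets can give UMIs in cells that do not express a gene, so the rule genes were also read in lineages without cycling cells. A share of 1.70% of AT2 cells in Cebpa fl/fl and 2.54% in Cebpa deltaSftpc had at least 1 UMI of the rule genes, at median depths of 21100 and 3687 UMIs. In fibroblasts the shares were 1.05% and 2.15%, at median depths of 7500 and 3568.5 UMIs. In endothelial cells the shares were 0.887% and 4.50% (median depths 4646.5 and 2748). Thinned to 2000 UMIs per cell, the shares were 0.363% and 2.05% in endothelial cells and 0.311% and 0.850% in fibroblasts. In AT2 cells they were then 0.248% (1 of 404) and 1.30% (1 of 77). Outside cycling cells the rule genes summed to 1.62 CPM in endothelial cells of Cebpa fl/fl and 10.5 CPM in those of Cebpa deltaSftpc. In fibroblasts they stood at 1.86 and 3.76 CPM, in AT2 cells at 0.834 and 2.34 CPM, and in multiciliated cells at 2.38 and 9.47 CPM. Cells gated together as platelets or megakaryocytes had them at 1.77 and 16.1 CPM, with a UMI in 0.234% and 2.76% of cells (median depths 1019.5 and 1532). The part of free RNA in the Cebpa deltaSftpc calls of 3 or 4 UMIs was not tested.

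The S and G2/M members differed between the libraries by unequal amounts. Counts were summed over all cells of a library, and a gene counted as tested if it had at least 50 UMIs over both, as all 42 members did. All 24 G2/M members had an interval of the log2 ratio above 0 and 21 were at least 2-fold higher in Cebpa deltaSftpc, against 31.6% and 9.52% of the 16271 genes tested. These intervals do not allow for UMIs that sit together in few cells. Of the 15 S members, 13 had an interval above 0 and 5 were 2-fold higher. The median log2 ratio was 2.01 for G2/M members, 0.46 for S members and -0.08 over all genes. Summed, the G2/M members went from 47.4 to 166 CPM and the S members from 165 to 233 CPM. The cell makeup and the depth differed between the libraries, and their part in these sums cannot be told apart from the genotype with 1 library each.

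**Figure D3:**
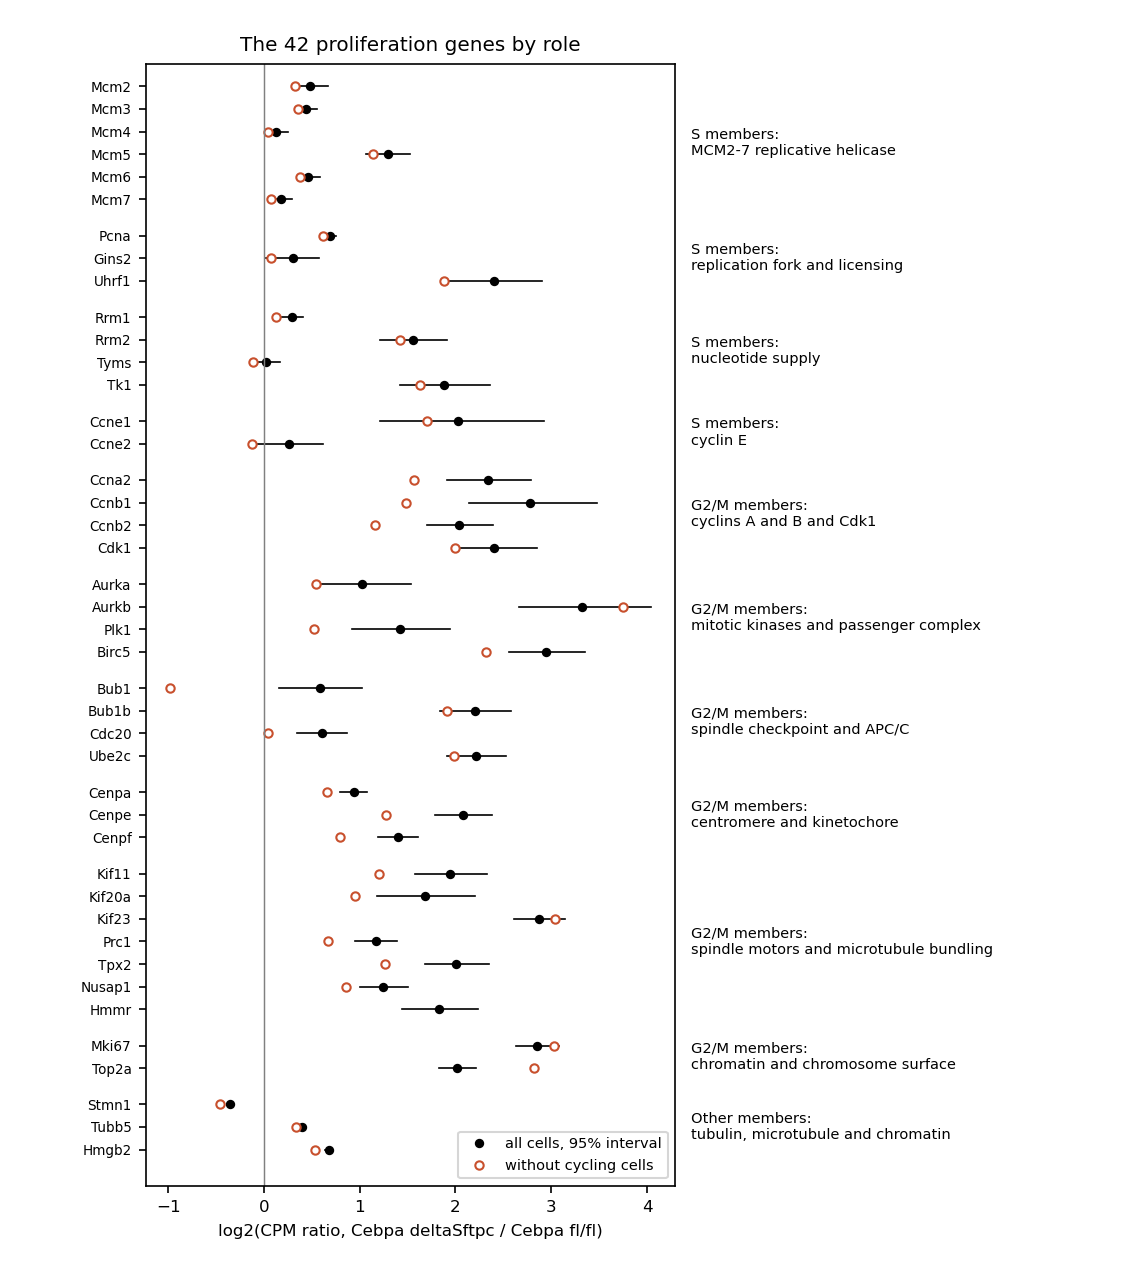
Log2 ratio of CPM, Cebpa deltaSftpc over Cebpa fl/fl, for the 42 members grouped by role. Filled circles with exact 95% intervals are sums over all cells, open circles are sums without cycling cells where a gene kept 50 UMIs; all 24 G2/M members lie above 0 in all cells, and Bub1 lies at -0.98 without cycling cells.

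Among the S members, the MCM genes encode the 6 subunits of one ring but did not move alike. Mcm5 had 220 UMIs (3.20 CPM) in Cebpa fl/fl and 505 UMIs (7.84 CPM) in Cebpa deltaSftpc, a log2 ratio of 1.29 (1.06 to 1.53). Mcm4 had 16.8 and 18.4 CPM, a log2 ratio of 0.13 (0.01 to 0.25). Mcm2, Mcm3, Mcm6 and Mcm7 lay between 0.18 and 0.48.

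Of the replication factors, Uhrf1, which carries DNA methylation over to the new strand, had 44 UMIs (0.640 CPM) and 218 UMIs (3.38 CPM), a log2 ratio of 2.40 (1.93 to 2.90) that was the largest of the S members. Gins2, a subunit of the active helicase, had 2.94 and 3.62 CPM (log2 ratio 0.30), and Pcna had 52.6 and 84.7 CPM (0.69). Of the enzymes that supply nucleotides, Tk1, the salvage thymidine kinase, had 51 UMIs (0.741 CPM) and 176 UMIs (2.73 CPM), a log2 ratio of 1.88 (1.42 to 2.36). Tyms, thymidylate synthase, had 11.7 and 11.9 CPM (0.02, -0.12 to 0.17). The subunits of ribonucleotide reductase differed too, with Rrm2 at 1.56 (1.21 to 1.91) and Rrm1 at 0.30 (0.18 to 0.41). Of the E cyclins, which start S phase with Cdk2, Ccne1 had 16 and 61 UMIs (log2 ratio 2.02, 1.21 to 2.92) and Ccne2 had 127 and 143 (0.27, -0.09 to 0.62).

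Among the G2/M members, the cyclins and their kinase lay close together, from Ccnb2 at 2.04 (90 and 347 UMIs) to Ccnb1 at 2.78 (23 and 148 UMIs). The mitotic kinases were spread more widely. Aurkb, the kinase of the passenger complex, had 21 UMIs (0.305 CPM) and 196 UMIs (3.04 CPM), a log2 ratio of 3.32 (2.66 to 4.04) that was the largest of the 42 members. Aurka, which acts at the spindle poles, had 52 and 99 UMIs, a log2 ratio of 1.02 (0.52 to 1.54).

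Of the checkpoint and anaphase-promoting complex genes, Ube2c, its ubiquitin-conjugating enzyme, stood at 1.60 and 7.43 CPM (log2 ratio 2.22, 1.91 to 2.53). Bub1, a checkpoint kinase, stood at 1.13 and 1.71 CPM, with 78 and 110 UMIs (0.59, 0.16 to 1.03). Of the centromere genes, the kinetochore motor Cenpe had 1.72 and 7.25 CPM (2.08) and the centromeric histone Cenpa 648 and 1162 UMIs (0.94). Of the spindle motors and bundling proteins, Kif23, a motor of the central spindle, had 139 UMIs (2.02 CPM) and 953 UMIs (14.8 CPM), a log2 ratio of 2.87 (2.61 to 3.14), and Prc1, which bundles the same microtubules, had 3.69 and 8.32 CPM (1.17, 0.95 to 1.39). Bub1, Cdc20 (0.61) and Cenpa were the G2/M members under 2-fold.

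The 3 other members had the most UMIs and were each under 2-fold. Stmn1, which frees tubulin from microtubules, had 253 and 198 CPM and was the only member lower in Cebpa deltaSftpc (log2 ratio -0.35, -0.39 to -0.32). Tubb5, a tubulin, had 245 and 322 CPM (0.40), and the chromatin protein Hmgb2 159 and 254 CPM (0.68).

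Genes of the cell cycle that are no members gave the following counts, in the same sums over all cells. Of all genes 31.6% had an interval above 0 and 43.9% below it. Of 27 further S genes tested 16 had one above 0 and 2 below it, among them the histone chaperone gene Asf1b (log2 ratio 2.13) and the licensing factor Cdt1 (1.74), with Orc6 (-0.21), Lig1 (-0.18) and Brca2 (-0.11) lowest. Of 29 further G2/M genes 27 had an interval above 0, led by Cdca3 (2.86), Kif2c (2.68) and Racgap1 (2.47), which partners with Kif23. Securin, Pttg1, was the 1 further G2/M gene with an interval below 0 (131 and 85.2 CPM, -0.62), with Ncaph (0.20) and Kif4 (0.26) next.

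A list of 14 genes was grouped here as regulators of G1, the phase before S. It mixes genes that drive the cycle with genes that restrain it. Of these 14 genes, 13 had an interval above 0 (31.6% of all genes), and Cdk4 had one below it (-0.19). The highest were E2f8 (2.14), E2f1 (1.92) and E2f2 (1.20). The inhibitors of cyclin-dependent kinases, which hold cells out of the cycle, split by gene. Cdkn1a (213 and 313 CPM, 0.56), Cdkn2d (0.43) and Cdkn2a (0.36) lay above 0, and Cdkn1c (103 and 39.5 CPM, -1.38), Cdkn2c (-0.61) and Cdkn2b (-0.60) lay below 0, where 43.9% of all genes had an interval below 0 and 10% were 2-fold lower.

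The cycling cells held a small share of all RNA and a large share of the G2/M members. They made up 0.236% of the UMIs in Cebpa fl/fl and 2.12% in Cebpa deltaSftpc. Of the UMIs of G2/M members 45.2% and 62.6% lay in them, of S members 2.66% and 12.4%, and of the 3 others 2.50% and 11.0%. The 5 rule genes had 80.1% and 79.2% of their UMIs there, which the rule itself favours. They are G2/M members, and gave 492 of the 1475 and 2575 of the 6703 G2/M UMIs in cycling cells. The shares of the G2/M members are raised by this.

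**Figure D4:**
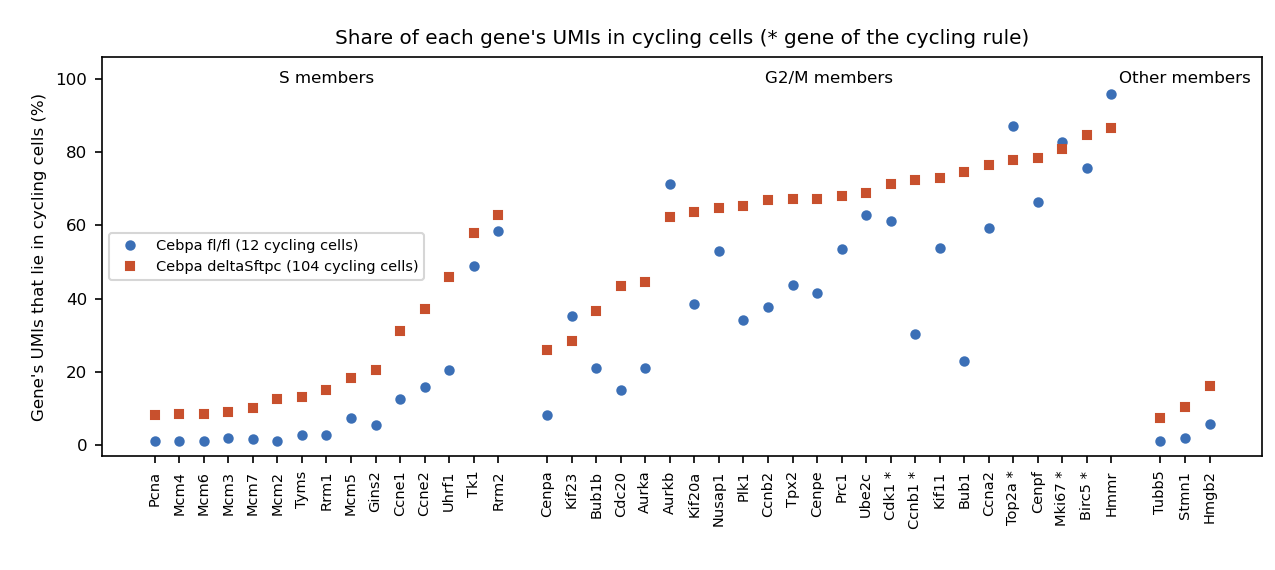
Percent of each member's UMIs that lie in cycling cells, for 12 Cebpa fl/fl cells (circles) and 104 Cebpa deltaSftpc cells (squares); an asterisk marks a gene of the cycling rule. Among S members Rrm2 and Tk1 lie highest, and G2/M members run from 8.18% (Cenpa, Cebpa fl/fl) to 95.8% (Hmmr, Cebpa fl/fl).

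Among members outside the rule, Hmmr, a spindle protein, was the most confined, with 95.8% of 72 UMIs and 86.7% of 240 UMIs in cycling cells. Pcna was among the least, with 1.16% of 3617 and 8.08% of 5461 UMIs, and was found in 23.9% and 25.5% of all cells. The S set was itself divided, since Rrm2 had 58.5% and 62.9% of its UMIs in cycling cells and Tk1 49.0% and 58.0%, while the MCM genes had between 1.04% and 18.2%. Uhrf1, Rrm2, Tk1 and Ccne1, the S members at least 2-fold higher in Cebpa deltaSftpc together with Mcm5, had 16 to 94 UMIs in Cebpa fl/fl.

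Within a lineage, members that the rule had not used were higher in cycling than in other cells. The sets compared were the endothelial cells of each library and the phagocytes of Cebpa deltaSftpc. All 19 G2/M members outside the rule were at least 2-fold higher in each of the 3, with log2 ratios from 4.93 (Cenpa) to 12.56 (Hmmr) in Cebpa fl/fl endothelial cells, 4.26 (Cenpa) to 7.90 (Hmmr) in Cebpa deltaSftpc endothelial cells and 2.83 (Bub1b) to 9.38 (Cenpf) in phagocytes. All 15 S members were also at least 2-fold higher in each, with intervals above 0 for 13, 15 and 15. These counts take in members under 50 UMIs, which 10, 16 and 16 of the 19 G2/M members and 11, 14 and 13 of the S members had reached. Of all genes with at least 50 UMIs 37.9%, 22.8% and 6.71% were 2-fold higher in the cycling cells, which were deeper than the others in each set. In these ratios a count under 3 was raised to 3. A gene with fewer than 3 UMIs in the cycling cells could thus still count as 2-fold higher. The parts of this floor and of depth in the shares were not tested. Hmmr had 2 UMIs in the other Cebpa fl/fl endothelial cells and 1 in the other phagocytes, so the floor lowered its ratios there. A cell takes many UMIs of related genes at once, so the members compared are not independent of the rule genes.

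The 10 genes with the largest ratios in each set took in rule genes, which rank high because they chose the cells. These were Mki67 and Top2a in Cebpa fl/fl endothelial cells, Birc5 and Mki67 in those of Cebpa deltaSftpc, and Birc5 and Top2a in phagocytes. The rest were other members, further mitotic genes and genes in no list. In Cebpa fl/fl endothelial cells the histone genes Hist1h1b and Hist1h2ap were among the first 10, with 79 and 126 UMIs in 10 cycling cells. In Cebpa deltaSftpc endothelial cells the first 5 were the keratins and Lgals7 of the single cell described above, followed by Knl1 and Pbk. In phagocytes Cenpf led (257 UMIs in 30 cycling and 4 in 681 other cells) once counts under 3 were raised to 3. Hmmr, with 117 UMIs in cycling and 1 in other phagocytes, ranked second because of that floor. Pclaf, a Pcna partner, and Cep55, which acts in the last cut between daughter cells, were the genes in no list.

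S genes and G2/M genes were found in the same cells in different proportions. UMIs of S members outnumbered those of G2/M members outside the rule in 1 of 12 cycling cells of Cebpa fl/fl and 32 of 104 of Cebpa deltaSftpc, were outnumbered in 11 and 64, and were equal in 8 Cebpa deltaSftpc cells. By lineage, S members led in 13 of 46 endothelial cells and 11 of 30 phagocytes of Cebpa deltaSftpc. The 5 rule genes peak late in the cycle, so cells in early S phase can be missed.

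Left without the cycling cells, many members still differed between the libraries, though the rule by its nature takes its own 5 genes down. Cells with 2 UMIs of the rule genes, 11 in Cebpa fl/fl and 87 in Cebpa deltaSftpc, stayed in these sums. Of 24 G2/M members 23 kept 50 UMIs, 19 had an interval above 0 and 14 were 2-fold higher in Cebpa deltaSftpc, where 31% of all genes had such an interval and 8.94% were 2-fold higher. Their median log2 ratio fell from 2.01 to 1.26, and that of the S members from 0.46 to 0.36. Kif23 stood at 3.04 (90 and 682 UMIs) and Mki67 at 3.03 (34 and 255 UMIs). Of the 682 Kif23 UMIs, 203 lay in the 317 neutrophils of Cebpa deltaSftpc, while Cebpa fl/fl held 3 neutrophils. Bub1 turned to -0.98 (-1.68 to -0.31), with 60 and 28 UMIs, and was the only G2/M member with an interval below 0, which 43.8% of all genes had.

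In endothelial cells alone, which both libraries held in like numbers, the same members differed less. Of the G2/M members all 24 kept 50 UMIs, 19 had an interval above 0 and 13 were 2-fold higher in Cebpa deltaSftpc, where 32% of 14182 genes had such an interval and 7.31% were 2-fold higher. Their median log2 ratio was 1.08, 0.83 in cells with at least 3000 UMIs and 0.66 in cells with no Ptprc UMI. For S members it was 0.22, with 14 of 15 tested, 8 intervals above 0 and 3 genes 2-fold higher. Uhrf1 was highest of the S members (19 and 102 UMIs, 2.60) and Aurkb of the G2/M members (14 and 64 UMIs, 2.37). In the same cells Mki67 stood at 3.35 and 11.3 CPM (1.76, 1.48 to 2.04), and Cenpa (11.6 and 11.1 CPM) and Aurka (0.964 and 0.925 CPM) had intervals that spanned 0.

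In AT2 cells and fibroblasts, which held no cycling cell, few G2/M members had UMIs enough to be compared singly (2 in AT2 cells and 1 in fibroblasts). The S members summed to 93.4 CPM (87.0 to 100.2) in Cebpa fl/fl and 112 CPM (94.8 to 132) in Cebpa deltaSftpc AT2 cells, and the G2/M members to 27.3 CPM (23.9 to 31.1) and 35.1 CPM (25.6 to 47.0). In fibroblasts the S members summed to 135 and 158 CPM and the G2/M members to 21.7 and 25.7 CPM. Each of these differences was under 0.4 on the log2 scale, and those of the G2/M members had intervals that spanned 0.

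Some members were frequent in cells that were not cycling, and those named here were chosen after their values were seen. Kif23 had 203 UMIs in the 317 neutrophils of Cebpa deltaSftpc, 136 CPM (118 to 156), in 37.2% of the cells, while the 5 rule genes together had 11 UMIs (7.35 CPM). All G2/M members together had 262 UMIs in neutrophils. Hmgb2 was also high there, at 1526 CPM. In the same library it stood at 754 CPM in the 36 mast cells or basophils. Non-cycling T or NK cells had 415 CPM and non-cycling phagocytes 291 CPM.

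**Figure D5:**
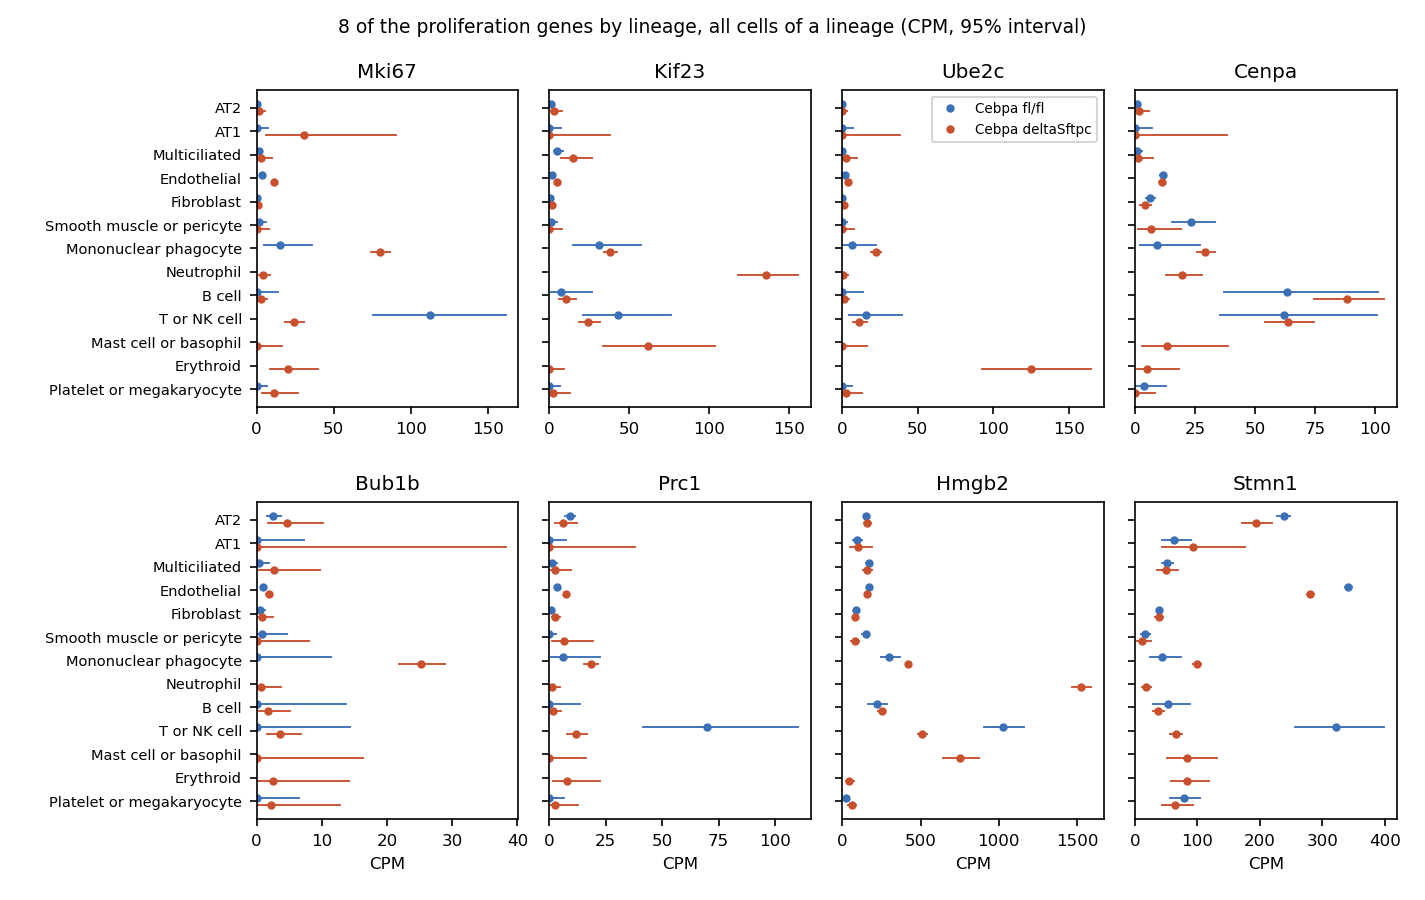
CPM with exact 95% intervals of 8 members in the lineages with enough cells, cycling cells included, for Cebpa fl/fl (blue) and Cebpa deltaSftpc (red). In Cebpa deltaSftpc, Kif23 and Hmgb2 are highest in neutrophils, Ube2c in erythroid cells (125 CPM), Cenpa in B cells (88.5 CPM) and Bub1b in phagocytes (25.2 CPM), and Mki67 is highest in the 33 T or NK cells of Cebpa fl/fl, where 1 cell sets it.

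Erythroid cells of Cebpa deltaSftpc carried several G2/M genes, though none was called cycling. Mki67 had 8 UMIs there (20.4 CPM). A UMI of the rule genes was found in 10.8% of the 102 cells, at a median depth of 1600 UMIs. Ube2c had 49 UMIs in 102 erythroid cells of Cebpa deltaSftpc, 125 CPM (92.3 to 165), in 22.5% of the cells, and Nusap1, which bundles spindle microtubules, had 24 UMIs (61.1 CPM). In non-cycling multiciliated cells of that library Ube2c stood at 2.71 CPM (2 UMIs). With cycling cells included, phagocytes held 37.2% of the 479 Ube2c UMIs of the library, and T or NK cells had 11.2 CPM (28 UMIs). Erythroid precursors divide in the marrow and leave it as reticulocytes, which have no nucleus, and hemoglobin RNA alone had gated these cells.

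Cenpa was found in B cells at 63.4 CPM in Cebpa fl/fl and 88.5 CPM (74.8 to 104) in Cebpa deltaSftpc, where 34.3% of cells had a UMI and none was cycling. Bub1b stood at 16.4 CPM (120 UMIs) in non-cycling phagocytes of Cebpa deltaSftpc, and phagocytes held 61.8% of its UMIs in that library, against 20.8% in endothelial cells.

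AT2 cells carried Bub1 and Prc1 without any cycling cell. Bub1 had 55 of its 78 Cebpa fl/fl UMIs in AT2 cells (70.5%; 6.55 CPM, 4.94 to 8.53), at a level like the 6.25 CPM (8 UMIs, 2.70 to 12.3) of Cebpa deltaSftpc. Prc1 had 75 of 254 Cebpa fl/fl UMIs there (29.5%; 8.94 CPM). AT2 cells were 3.58% of the cells in Cebpa fl/fl and 0.891% in Cebpa deltaSftpc, and Bub1 was the G2/M member whose interval lay below 0 when cycling cells were left out.

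Stmn1 was highest in endothelial cells (341 and 281 CPM) and high in AT2 cells (238 and 194 CPM), which held no cycling cell. Tubb5 was likewise highest in endothelial cells, at 311 and 386 CPM.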

How the data were processed

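Droplet single-cell RNA-Seq (10x Genomics 3′) was read from 1 library per genotype, labelled FF (Cebpa fl/fl) and KO (Cebpa deltaSftpc), each a pool of 3 mice. The authors made whole-number UMI counts per gene and cell with Cell Ranger (6.1.1 in the submitters' processing notes, 5.0.0 in the file headers) against mm10, deposited as filtered matrices without normalization. The study's cell totals equal the 11721 and 13373 barcodes in the files. Its stated filter was applied here (at least 200 genes, at most 20% mitochondrial UMIs) and left 11487 and 13238 cells.

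Cells were gated by raw counts of 126 markers of 16 lineages: at least 3 marker UMIs from at least 2 markers of a lineage, and at least 2 times those of the next. Erythroid cells needed 20% hemoglobin UMIs. Cells of conflicting markers were kept as ambiguous. The study's sorting strategy excludes doublets by scatter, without saying whether these libraries were sorted, and no removal from the data is named. No doublets were removed here. An alternative left out the 8% highest Scrublet scores. To match depths, cells were thinned to 2000 UMIs at random, leaving out shallower ones (2160 Cebpa fl/fl and 5610 Cebpa deltaSftpc cells), or limited to 3000 UMIs or more.

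Counts were summed per library and lineage and given as CPM. Intervals are 95% exact (Clopper-Pearson for shares, Poisson for CPM, conditional binomial for ratios), and the limit of a count of 0 is 3 counts. Genes with at least 50 UMIs over both groups entered comparisons over all genes, and the scripts were tested on simulated data. In log2 ratios of CPM of single genes a count under 3 was first raised to 3. A gene was called 2-fold higher at a log2 ratio of at least 1. With 1 library per genotype no test was run.

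Genes were named by rule: the 5 genes of the cycling rule, the largest and smallest log2 ratio of each role, the 3 highest and 3 lowest of each other list, and the 10 genes with the largest ratio of cycling to other cells in lineages with at least 20 cycling cells over both libraries. One gene that the rule names is not reported here. Members, lists and the cycling rule were chosen with earlier results of these data known. Scripts ran in Python 3.11.15 with scipy 1.17.1, numpy 2.4.6 and pandas 2.3.3, Scrublet through scanpy 1.11.5, and plots through matplotlib 3.10.9.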

Additional observations from a re-analysis of the deposited data

Results flagged for a closer look

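In T and NK cells the members ran against endothelial cells. The median log2 ratio of Cebpa deltaSftpc over Cebpa fl/fl was -1.51 for the 4 G2/M members with at least 50 UMIs, against 1.08 in endothelial cells, and -0.58 for 8 S members, against 0.22. Both differences were not tested. They rest on the single cycling T cell of Cebpa fl/fl, without which the medians were 0.90 for 3 G2/M members and 0.16 for 8 S members. These medians keep the 7 cycling cells of Cebpa deltaSftpc. With cycling cells left out of both libraries they were 0.47 for 2 G2/M members and 0.49 for 7 S members.

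A further 19 cycling cells of Cebpa deltaSftpc belonged to no lineage, 18 of them ambiguous and 1 ungated, of 2069 such cells (0.918%), against 0 of 790 in Cebpa fl/fl, which allows a share of up to 0.380%. Of the 18 ambiguous ones 4 had at least 20 UMIs of the rule genes and 6 carried Ptprc. Ambiguous cells made up 14.1% of the Cebpa deltaSftpc library and 4.35% of the other, and the part of doublets in them was not tested.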

How the results depend on the processing

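The higher share of cycling cells in Cebpa deltaSftpc kept its direction under every alternative run, with log2 ratios from 2.07 to 3.15 over all cells and from 0.45 to 2.77 in endothelial cells. The lowest endothelial value, 0.45, came with at least 20 UMIs of the rule genes. The phagocyte share ran from 1.83% to 5.63%, and was 2.59% thinned to 2000 UMIs, 2.25% at 20 UMIs or more and 1.83% with at least 3 UMIs that also made up 2 per 1000. The median log2 ratio of S members was 0.22 in endothelial cells alone, also in those without Ptprc. That of G2/M members was 1.26 without cycling cells, 1.08 in endothelial cells alone and 0.66 in those without Ptprc. None of the values from the alternatives that were run reversed, and the cause of the shifts was not tested. The settings at 20 UMIs, per 1000 UMIs, without Ptprc, without cycling cells and in endothelial cells alone were chosen after seeing the data. No paired analysis was possible because each genotype is 1 library, and for the same reason no replicate could be left out. Shares in AT2 cells of Cebpa deltaSftpc and phagocytes of Cebpa fl/fl are limited by their 118 and 49 cells.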
